A study of Mus musculus with 6 samples.

Results

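The collagen genes were taken from the deposited RNA-seq table as every gene symbol made of Col, a type number, the letter a and a chain number. The table listed 42 such symbols among 26110 genes, and 34 of them had an average of 10 or more across the 6 libraries. These 34 were described as 10 fibrillar, 5 basement membrane (type IV) and 19 other collagen genes. The same limit kept 17812 genes for testing. Just above it were Col9a2 with a mean of 10.5 and Col13a1 with a mean of 10.7, and just under it was Col28a1 with a mean of 8.86.

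Collagens are extracellular proteins built of triple helices, in which glycine recurs at a fixed spacing along each chain. Fibrillar types such as I, III and V assemble into the fibrils of connective tissue, type IV forms the sheet-like network of basement membranes, type VI forms beaded filaments between cells, and the fibril-associated types attach to fibril surfaces. In the gut wall, fibroblasts, smooth muscle, pericytes, endothelium and enteric glia are known sources of collagen, and macrophages are better known for taking it up and breaking it down.

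The libraries were bulk RNA-seq of MHCII+ cells sorted from the muscularis externa (ME), the muscle coat of the small bowel, of untreated mice of the genotype CX3CR1+/GFP. In this genotype GFP takes the place of an allele of the chemokine receptor gene Cx3cr1, so that GFP reports its expression and all mice of both groups keep a single working copy. There were 3 libraries of CX3CR1- cells and 3 of CX3CR1+ cells, and tissue of several mice was pooled for the sorts. The study's methods give female mice on a C57BL/6 background and no age for these pools, and whether each library had a pool of its own is not stated, so that p-values measure the spread between libraries, which may be technical.

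The sample labels call the cells dendritic cells, whereas the study calls them macrophages. The study also saw higher transcripts of dendritic cell markers in CX3CR1- cells. By flow cytometry it found few of these cells with CD11c or CD103 and most with CD11b. In its immunostaining, MHCII+ cells of both kinds carried the macrophage marker IBA-1. The values below are of RNA only. Cx3cr1 followed the labels, with normalized values of 18.9 to 28.5 in CX3CR1- and 347 to 380.4 in CX3CR1+ libraries, and Ptprc overlapped between them. The MHCII gene H2-Aa was lower in CX3CR1-, at 23064 ± 2297 (SD, n = 3) against 46138 ± 2664 (limma adjusted p = 0.000243). H2-Ab1, H2-Eb1 and Cd74 had log2 fold changes of -0.64, -0.94 and -0.85, which missed the fold threshold, with limma adjusted p of 0.00360, 0.000519 and 0.000694 and each CX3CR1- library below each CX3CR1+ library. Of 8 macrophage markers, 8 were lower in CX3CR1- libraries, and of 8 dendritic cell markers, 8 were higher (8.15% and 12.2% of all genes tested). Kit, counted among the latter, also marks interstitial and mast cells. The libraries held about 5346381 to 17616761 reads, and the normalized value of 3 reads lay between 1.39 and 5.36. In CX3CR1- libraries, mitochondrial genes took 51.7 ± 3.76% (SD, n = 3) of the total, against 19.6 ± 1.55% for CX3CR1+. Across genes (not independent replicates), pairs of CX3CR1- libraries had a Pearson's r of 0.844 to 0.867 and pairs of CX3CR1+ libraries one of 0.953 to 0.958.

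A feature of many collagen genes, above all of the fibrillar ones, can be read in their exons. Many of them have a length of exactly 54 bases, which is 6 repeats of 9 bases, and in the 4 exons printed here each repeat opens with a glycine codon (GGN, where N is any base). Of 1917 coding exons of the 42 genes, 440 had this length (22.95%), against 0.459% of the coding exons of all other protein-coding genes. Each fibrillar gene had from 21 (Col1a1) to 33 (Col24a1 and Col27a1) of them, and each type IV gene from 1 (Col4a2) to 3 (Col4a5). Among the other collagens the number reached 28 in Col22a1, while Col26a1, Col8a1, Col8a2 and Col10a1 had none. A length that is a multiple of 9 was found for 61.6% of the collagen exons and 14.05% of the others. Exons of this kind are shown for the type I chains and type III, which had the highest mean per kb of transcript in CX3CR1- cells, and for Col14a1, which had the highest in CX3CR1+ cells. They are coding exons of the GENCODE release M21 annotation of GRCm38, on the plus strand, with the glycine codons in capitals. They lie at chr11:94939904-94939957 (Col1a1, coding exon 8), chr6:4515481-4515534 (Col1a2, coding exon 8), chr1:45325360-45325413 (Col3a1, coding exon 6) and chr15:55467960-55468013 (Col14a1, coding exon 36).
Col1a1: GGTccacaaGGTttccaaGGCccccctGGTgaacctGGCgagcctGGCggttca
Col1a2: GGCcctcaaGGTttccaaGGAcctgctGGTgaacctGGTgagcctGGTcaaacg
Col3a1: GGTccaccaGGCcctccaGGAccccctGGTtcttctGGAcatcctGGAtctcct
Col14a1: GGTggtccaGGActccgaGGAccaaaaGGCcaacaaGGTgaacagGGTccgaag

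The number of such repeats in an unbroken run was largest in the fibrillar class. The longest run was 338 repeats in Col1a1, 339 in Col1a2 and 344 in Col3a1, and it was 216 in Col24a1 and 217 in Col27a1, which have a shorter unbroken helix within a long chain. In the tested type IV genes it ranged from 39 in Col4a3 to 66 in Col4a2, within the range of the other collagens. In Col14a1 and Col12a1, which join short helical stretches to large non-collagen domains, it was 32. Reads can be shared between genes of like sequence. The largest share of 31-base stretches that a tested member had in common with any other gene was 5.35% for Col9a3, with the overlapping Tcfl5, and 5.08% for Col4a3, with the overlapping C430014B12Rik. The library kit does not mark strand, so that reads of overlapping genes on opposite strands cannot be told apart.

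The collagen genes did not all differ in the same direction: 17 of the 34 were higher in CX3CR1- libraries, 2 were lower (Col14a1 and Col26a1) and 15 did not pass. A call needed a log2 fold change of 1 or more in either direction with an adjusted p no higher than 0.05 (limma on log2 of value + 1, Benjamini-Hochberg over 17812 genes), and positive values mean higher in CX3CR1-. Of all genes tested, 12.2% were called higher and 8.15% lower. The median log2 fold change was 1.87 over the 34 genes, 4.48 over the fibrillar, 0.98 over the type IV and 1.23 over the other collagens, beside -0.003 over all genes tested. With genes at or under 3 reads in every CX3CR1+ library set to a bound at that level, the fibrillar median was 4.02. The 3 CX3CR1- libraries lay above the 3 CX3CR1+ libraries for 19 members and below them for 2, against 20.3% and 19.8% of all genes, and they overlapped for 13.

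The limit on the mean matters for these counts, because a gene that is near 0 in CX3CR1+ can only have passed through its CX3CR1- values. Of the 34 members, 11 had a CX3CR1+ mean under 10, and 9 of the 17 higher genes were among them. Of the 22 members with a mean of at least 10 in each population, 8 were higher, which is 36.4%, whereas 8.03% of all such genes were.

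**Figure D1:**
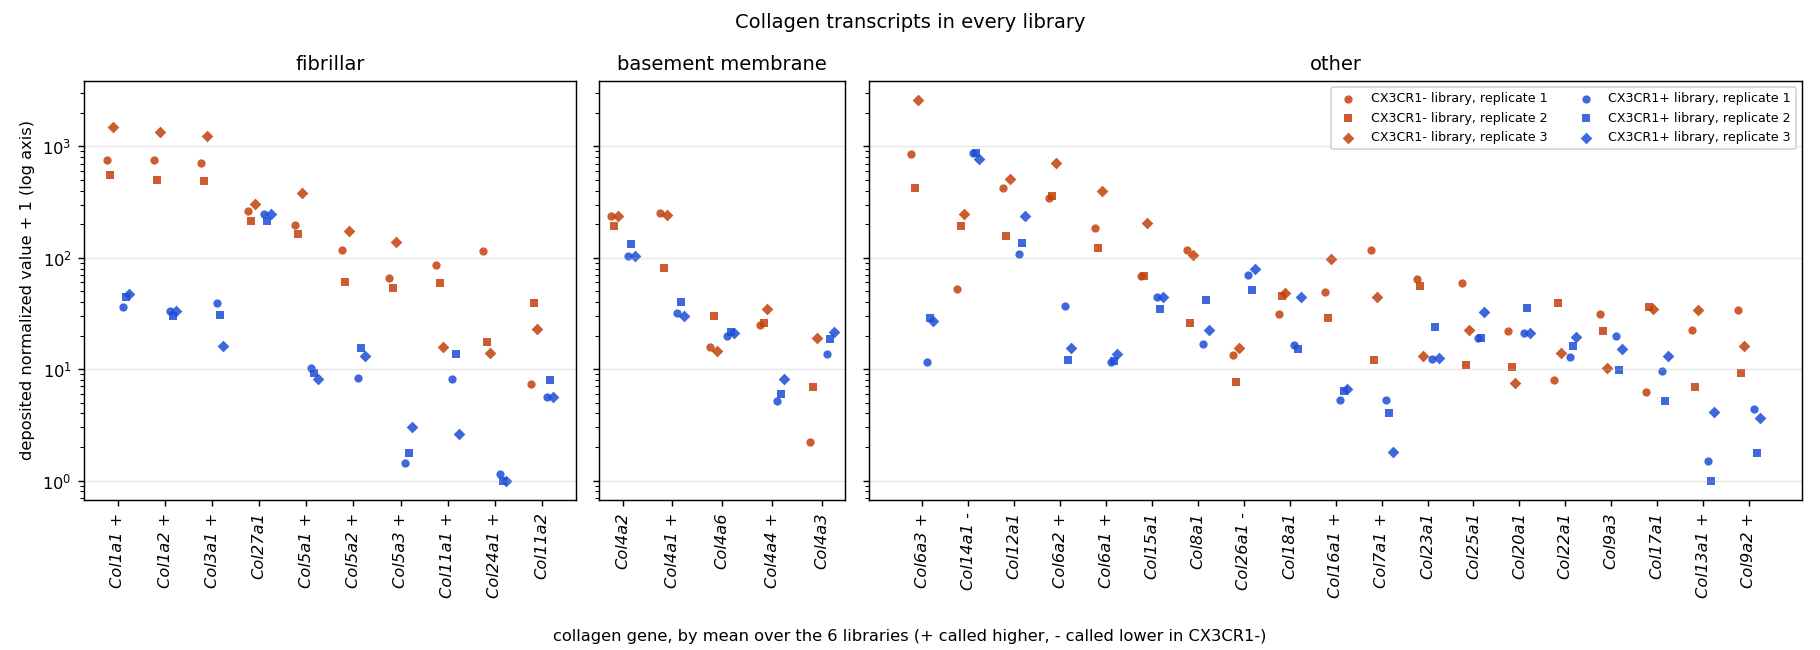
Deposited normalized value + 1 (log axis) of the 34 collagen genes in each of the 6 libraries, by class and by mean, with circles, squares and diamonds for replicates 1, 2 and 3. Orange CX3CR1- points stand far above blue CX3CR1+ points for Col1a1, Col1a2, Col3a1 and the Col6 genes, meet them for Col27a1, and lie below them for Col14a1 and Col26a1.

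Among fibrillar collagens, 8 of the 10 were higher in CX3CR1- cells, and none was lower. The chains of type I collagen, the main collagen of most tissues, led the class. Col1a1 (chromosome 11 of GRCm38, 94936224 to 94953042) was at 749, 553 and 1479 in CX3CR1- replicates 1, 2 and 3, and at 35.2, 43.5 and 46.7 in CX3CR1+ replicates 1, 2 and 3. The lowest CX3CR1- library was thus far above the highest CX3CR1+ library, and the CX3CR1- libraries themselves differed widely. The group means were 927 ± 488 (SD, n = 3) and 41.8 ± 5.98 (SD, n = 3), a log2 fold change of 4.32 (SE 0.34, limma adjusted p = 1.74e-05). Col1a2, its partner chain (chromosome 6, 4504814 to 4541544), was at 749.9, 502 and 1355 in CX3CR1- and at 32.1, 29.3 and 31.9 in CX3CR1+ libraries. It had the same order of libraries within CX3CR1- as Col1a1, and a log2 fold change of 4.64 (SE 0.34, limma adjusted p = 1.13e-05). Col3a1 encodes the chain of type III collagen, a homotrimer of stretchable tissues (chromosome 1, from 45311538). It was at 712, 485 and 1235 in CX3CR1- and at 38.3, 29.5 and 15.3 in CX3CR1+ libraries, with no overlap and a log2 fold change of 4.81 (SE 0.41, limma adjusted p = 2.48e-05).

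Type V and XI chains, which sit inside larger fibrils and limit their diameter, were lower in level and mostly moved the same way. Col5a1 was at 196, 161 and 378 in CX3CR1- and at 9.25, 8.20 and 7.08 in CX3CR1+ libraries, a log2 fold change of 4.65 (SE 0.39, limma adjusted p = 2.29e-05). Col5a2 had a log2 fold change of 3.18 (limma adjusted p = 0.000757). Col5a3, at 65.2, 52.8 and 139 in CX3CR1-, held 3 reads or fewer in every CX3CR1+ library and is given no fold. Col11a1 was higher too, at 85.4, 58.8 and 14.8 against 7.16, 12.5 and 1.63, a log2 fold change of 2.71 (limma adjusted p = 0.0301). That call was lost with quantile normalization, without the trend in limma, without CX3CR1- replicate 1 or 2 and without CX3CR1+ replicate 1 or 3. Its partner Col11a2 did not pass, with 6.37, 37.9 and 21.7 against 4.58, 6.96 and 4.60 and a limma adjusted p of 0.150.

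The fibrillar chains with the shorter helix, of types XXIV and XXVII, gave different results. Col27a1 had the fourth highest mean of the class and was at 262, 215 and 302 in CX3CR1- and at 247, 212 and 245 in CX3CR1+ libraries. The groups overlapped, and the log2 fold change was 0.13 (SE 0.22, 95% confidence interval -0.35 to 0.62, limma adjusted p = 0.705). Col24a1 was at 113, 16.7 and 13.1 in CX3CR1- libraries and at 3 reads or fewer in every CX3CR1+ library, so that replicate 1 alone carried most of its level. Col2a1, the chain of cartilage collagen, was under the limit on the mean, at 35.9, 0 and 4.15 in CX3CR1- and at 0 in every CX3CR1+ library.

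Of the type IV genes, which encode the basement membrane network, 2 of 5 were higher in CX3CR1- cells, Col4a1 and Col4a4. Col4a1 was at 252, 80.1 and 239 in CX3CR1- and at 31.1, 38.7 and 28.9 in CX3CR1+ libraries, with replicate 2 the lowest of the CX3CR1- libraries. Its log2 fold change was 2.34 (SE 0.43, limma adjusted p = 0.00308). Col4a2, the chain that joins Col4a1 in the common type IV molecule, was at 235, 193 and 235 in CX3CR1- and at 102, 133 and 102 in CX3CR1+ libraries. The groups did not overlap, but its log2 fold change of 0.98 (SE 0.24, limma adjusted p = 0.0129) fell short of the fold threshold. Col4a2 passed, with a value of 1.15, when libraries were scaled to their nuclear total. It also passed without CX3CR1- replicate 2 (1.07) and without CX3CR1+ replicate 2 (1.10). Without CX3CR1+ replicate 1 or 3 its limma adjusted p was 0.0572 and 0.0584.

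The rarer chains of type IV were low in both populations. Col4a4 was at 24.0, 25.0 and 33.9 in CX3CR1- and at 4.16, 4.92 and 7.08 in CX3CR1+ libraries, a log2 fold change of 2.17 (SE 0.53, limma adjusted p = 0.0130). Col4a3, which starts 71 bases from Col4a4 on the opposite strand, did not follow it, at 1.23, 5.95 and 18.0 against 12.7, 17.7 and 20.4 (log2 fold change -1.41, limma adjusted p = 0.242). Col4a6 was at 14.8, 28.9 and 13.5 against 18.9, 20.7 and 20.0, a log2 fold change of -0.14 (SE 0.47, limma adjusted p = 0.865) that turned to 0.03 with scaling to the nuclear total. Col4a1 and Col4a2 are likewise neighbours on chromosome 8 in opposite directions, and share 22 bases of exon.

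The 3 tested type VI genes, whose chains assemble into beaded filaments around cells, were all higher in CX3CR1- cells. Col6a3 (chromosome 1, from 90765923) had the highest mean of all collagen genes and was at 853, 426 and 2602 in CX3CR1- and at 10.6, 27.9 and 26.1 in CX3CR1+ libraries. Replicate 3 of CX3CR1- stood out, and without it the log2 fold change of 5.56 (SE 0.59, limma adjusted p = 0.000103) became 4.86. Col6a2 was at 342, 357 and 714 in CX3CR1- and at 36.0, 11.0 and 14.3 in CX3CR1+ libraries, a log2 fold change of 4.55 (SE 0.45, limma adjusted p = 6.68e-05). Col6a1 was at 185, 122 and 399 against 10.6, 10.9 and 12.7, a log2 fold change of 4.08 (limma adjusted p = 0.000101). The further chains Col6a4, Col6a5 and Col6a6 were under the limit on the mean, with at most 24.4 in any library, and Col6a5 was at 0 in every CX3CR1+ library.

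Of the 7 fibril-associated collagens, which decorate fibrils made by other types, 2 were higher in CX3CR1-, 1 was lower and 4 did not pass. The shares among all genes were 12.2% higher and 8.15% lower. Both higher genes, Col16a1 and Col9a2, had CX3CR1+ means under 10 (5.10 and 2.25) and so passed the limit on the mean through their CX3CR1- values. Of the 5 with a mean of at least 10 in each population, 0 were higher. Col14a1, the chain of type XIV collagen (chromosome 15, 55307750 to 55520803), was at 51.2, 193 and 244 in CX3CR1- and at 878, 873 and 777 in CX3CR1+ libraries. The CX3CR1+ libraries agreed closely and all lay above the CX3CR1- libraries. The CX3CR1- mean was 163 ± 99.9 (SD, n = 3) and the CX3CR1+ mean was 843 ± 57.1, which is 5.18 times as high, with a log2 fold change of -2.64 (SE 0.48, limma adjusted p = 0.00262). Without CX3CR1- replicate 1, its lowest library, the log2 fold change was -1.95. Col12a1, its closest relative, was at 422, 155 and 513 in CX3CR1- and at 108, 135 and 238 in CX3CR1+ libraries, and did not pass (log2 fold change 1.08, SE 0.44, limma adjusted p = 0.109). It did pass without CX3CR1- replicate 2, at 1.61 (limma adjusted p = 0.00983), and with libraries of adjacent numbers in the labels taken as a block, at 1.08 (limma adjusted p = 0.04).

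Col16a1 was at 48.3, 27.9 and 96.0 in CX3CR1- and at 4.28, 5.42 and 5.61 in CX3CR1+ libraries, a log2 fold change of 3.09 (limma adjusted p = 0.00242). Col9a2 was higher on low values, at 32.6, 8.22 and 15.2 against 3.40, 0.754 and 2.61 (log2 fold change 2.50, limma adjusted p = 0.0469). Its call was lost without CX3CR1- replicate 1 or 3, without each of the CX3CR1+ replicates in turn, with quantile normalization, with a pseudocount of 10 and with adjacent libraries as a block. Col9a3, Col20a1 and Col22a1 did not pass, with log2 fold changes of 0.42, -1.08 and 0.04.

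Col26a1 was the other collagen gene lower in CX3CR1- cells. It encodes a short collagen that is assigned to no larger family (chromosome 5, 136741759 to 136883209). It was at 12.3, 6.61 and 14.6 in CX3CR1- and at 68.5, 50.8 and 78.1 in CX3CR1+ libraries. The groups were well apart, with means of 11.2 ± 4.11 (SD, n = 3) and 65.8 ± 13.8 (SD, n = 3) and a log2 fold change of -2.50 (SE 0.43, limma adjusted p = 0.00204). Col14a1 and Col26a1 were called lower in every alternative in which they were tested.

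The remaining classes held few calls. Col7a1, which forms the anchoring fibrils under epithelia, was at 117, 11.0 and 43.5 in CX3CR1- and at 4.23, 3.06 and 0.814 in CX3CR1+ libraries (log2 fold change 3.56, limma adjusted p = 0.0128), a call that was lost without CX3CR1+ replicate 3. Of the 4 transmembrane collagens only Col13a1 was called, at 21.4, 5.91 and 33.0 in CX3CR1- and at 3 reads or fewer in every CX3CR1+ library. Its call was lost with quantile normalization and in each fit that left out a library other than CX3CR1- replicate 2. Col17a1, Col23a1 and Col25a1 had log2 fold changes of 1.19, 1.23 and 0.09 with limma adjusted p of 0.309, 0.197 and 0.932. The multiplexins, whose ends are cut off to give endostatin-like fragments, were Col15a1 and Col18a1. Col15a1 was at 67.0, 67.1 and 206 against 43.5, 33.3 and 43.3, without overlap but with a limma adjusted p of 0.0621. Col18a1 had a log2 fold change of 0.86 (limma adjusted p = 0.240). Col8a1, a short-chain collagen of vessel walls, was at 116, 25.0 and 106 against 15.7, 41.0 and 21.2 (log2 fold change 1.46, limma adjusted p = 0.108). Col4a5, Col8a2, Col10a1 and Col28a1 were under the limit on the mean, with at most 43.1 in any library.

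**Figure D2:**
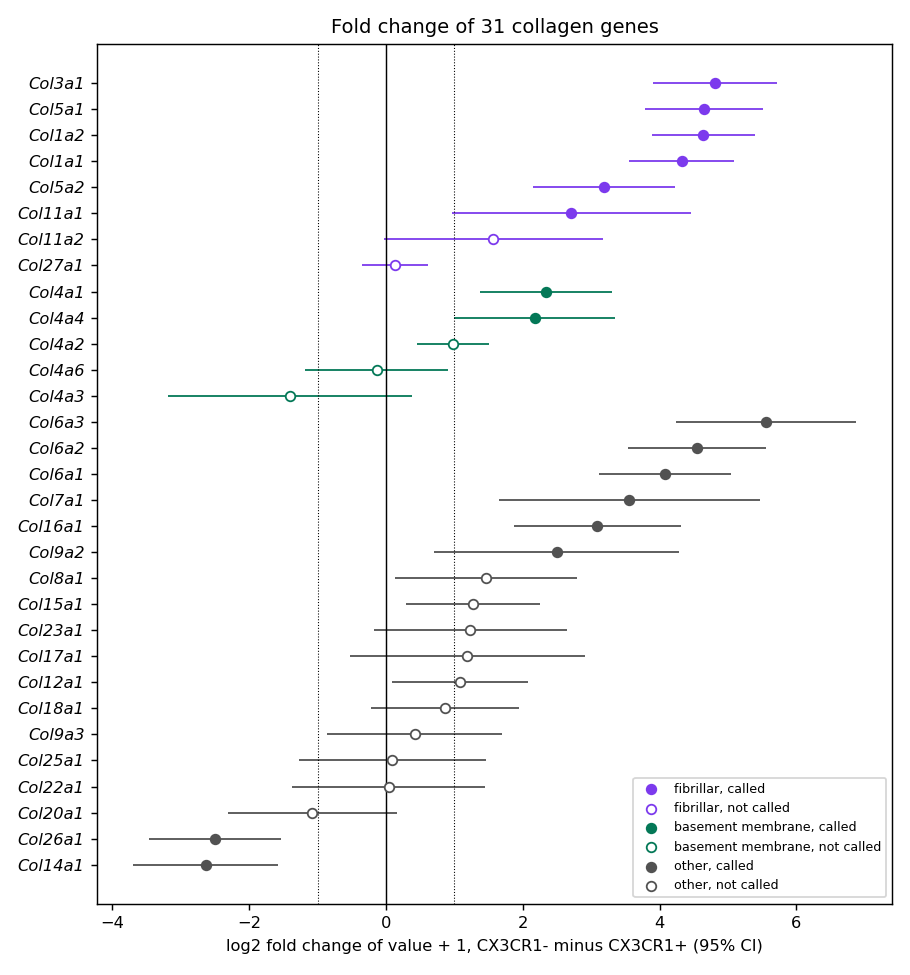
Log2 fold change of value + 1, CX3CR1- minus CX3CR1+, with 95% confidence intervals for 31 of the 34 collagen genes, by class, filled where called. Col5a3, Col24a1 and Col13a1 are left out because every CX3CR1+ library held 3 reads or fewer. Col6a3 is farthest to the right at 5.56 and Col14a1 farthest to the left at -2.64.

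The make-up of the collagen transcripts was then described in each population. To compare genes, each value was divided by the length in kb of the longest coding transcript of the gene. Per kb, the highest CX3CR1- means were those of Col1a2 (162 ± 82.1, SD, n = 3), Col1a1 (156 ± 82.3), Col3a1 (146), Col6a3 (128) and Col6a2 (119). The means of the first 3 lay within an SD of each other, but the genes share their libraries, and the difference was not tested. Within each CX3CR1- library, Col1a2 was the highest of the 3 per kb. In CX3CR1+ cells the highest mean per kb was that of Col14a1 at 130.5 ± 8.84 (SD, n = 3), followed by Col27a1 at 30.8 ± 2.59, Col26a1 at 24.2 ± 5.07 and Col4a2 at 17.4 ± 2.78.

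As a share of the collagen total per kb, Col1a1, Col1a2 and Col3a1 together made up 39.2, 39.5 and 42.4% in the CX3CR1- libraries and 6.11, 5.96 and 5.29% in the CX3CR1+ libraries. The type VI genes Col6a1, Col6a2 and Col6a3 made up 25.4 ± 5.24% (SD, n = 3) and 3.27 ± 0.761%. Col14a1 alone took 44.1, 44.5 and 38.3% in the CX3CR1+ libraries, against 0.789, 4.30 and 2.21% in the CX3CR1- libraries. The share of Col4a1 and Col4a2 together was 5.90 ± 1.58% and 7.26 ± 1.26%, with overlapping libraries. These shares are bound to each other, since they add up to the whole within a library, and were not tested.

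**Figure D3:**
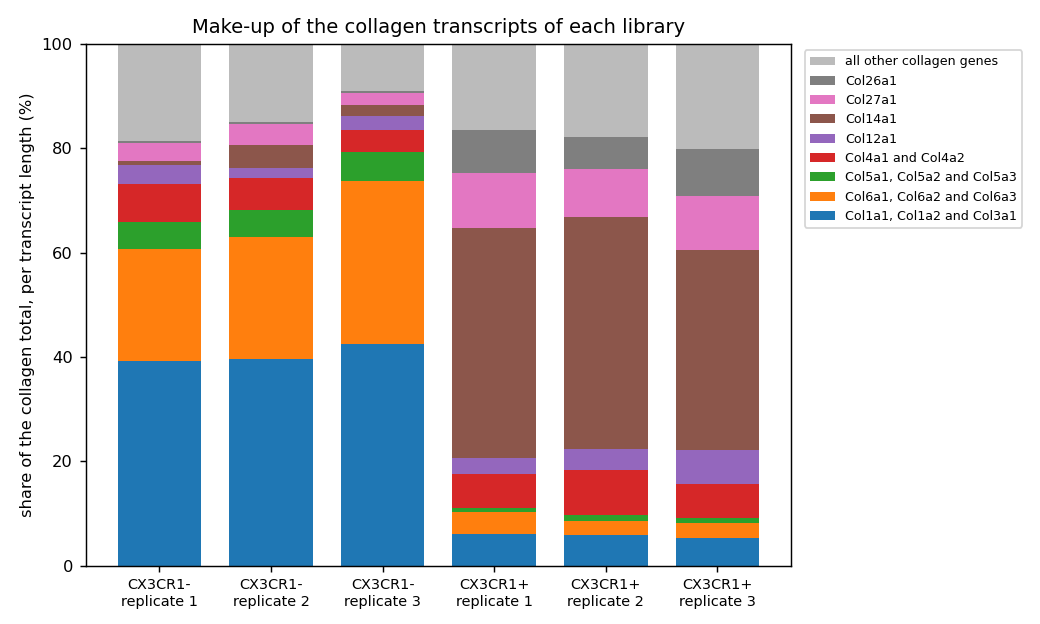
Share of each gene or group of genes in the collagen total of a library (%), after division by transcript length, as stacked bars for the 6 libraries. Types I and III (blue) and type VI (orange) fill most of the CX3CR1- bars, and Col14a1 (brown) takes 38.3 to 44.5% of each CX3CR1+ bar.

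Ratios between chains of a molecule do not depend on a scaling shared by all genes of a library, and 4 pairs were compared. A normalization that differed between genes would not cancel in them. In type I collagen protein, Col1a1 chains outnumber Col1a2 chains. The transcript ratio of Col1a1 to Col1a2 per kb was 0.901, 0.993 and 0.984 in CX3CR1- and 0.988, 1.34 and 1.32 in CX3CR1+ libraries, which overlapped (exact two-sided permutation test, p = 0.2, adjusted over the 4 pairs 0.267). The ratio of Col4a1 to Col4a2 per kb was 1.05, 0.404 and 0.990 in CX3CR1- and 0.298, 0.284 and 0.276 in CX3CR1+ libraries. Every CX3CR1- library was above every CX3CR1+ library, and the exact permutation p of 0.1 (adjusted 0.2) is the smallest that 3 against 3 allow. For Col5a1 to Col5a2 the ratio was 1.33, 2.13 and 1.71 in CX3CR1- and 0.999, 0.451 and 0.463 in CX3CR1+ libraries, again without overlap (exact permutation p = 0.1, adjusted 0.2). The CX3CR1+ ratios rest on few reads, with Col5a1 at 9.25, 8.20 and 7.08 and Col5a2 at 7.30, 14.3 and 12.1. The value of 3 reads in these libraries was 1.39, 2.46 and 4.25. For Col6a1 to Col6a2 the ratio was 0.463 ± 0.115 (SD, n = 3) and 0.700 ± 0.365, with overlap (exact permutation p = 0.6). Both genes were likewise low in CX3CR1+ libraries.

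**Figure D4:**
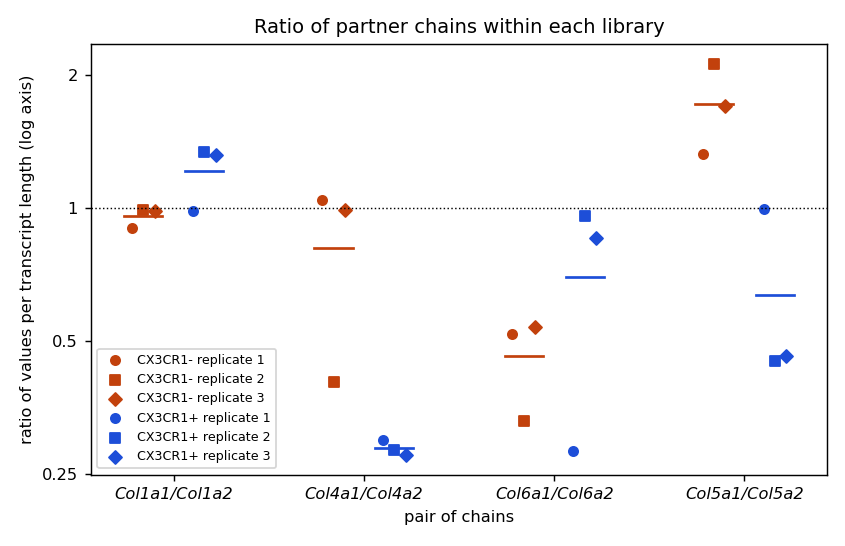
Ratio of partner chains per transcript length (log axis) in each library, with lines for the means of the 3 CX3CR1- (orange) and 3 CX3CR1+ (blue) libraries. The populations are apart for Col4a1/Col4a2 and Col5a1/Col5a2 and overlap for Col1a1/Col1a2 and Col6a1/Col6a2.

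Enzymes and chaperones turn newly made collagen chains into a stable fibre. Of 28 tested genes of chain modification, folding, propeptide cleavage and cross-linking, 8 were higher in CX3CR1- cells, 1 was lower and 19 did not pass. The shares over all genes tested were 12.2% higher and 8.15% lower. Of the 24 with a mean of at least 10 in each population, 7 were higher, beside 8.03% of all such genes. In the modification and folding list alone, 4 of 19 were higher and 0 lower. Serpinh1, which encodes the collagen chaperone HSP47, was at 263, 116 and 206 in CX3CR1- and at 11.5, 15.5 and 10.9 in CX3CR1+ libraries, a log2 fold change of 3.78 (SE 0.38, limma adjusted p = 7.23e-05). Plod2, the lysyl hydroxylase of the chain ends, was at 96.2, 68.1 and 281 against 8.63, 9.16 and 12.5 (log2 fold change 3.50, limma adjusted p = 0.000787). P4ha1, a catalytic subunit of prolyl 4-hydroxylase, which makes the helix stable, did not pass, at 181, 188 and 242 against 279, 249.7 and 252 (limma adjusted p = 0.263). P4ha3 and Crtap, named after their values were seen, were also higher, with log2 fold changes of 1.53 and 1.72. The summed level of the modification and folding list was 3902 ± 265 (SD, n = 3) for CX3CR1- and 3673 ± 418 for CX3CR1+ libraries, which overlapped.

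Outside the cell, procollagen is trimmed by BMP1 with the help of PCOLCE and then cross-linked by lysyl oxidases. Pcolce was at 163, 138 and 223 in CX3CR1- and at 19.0, 17.4 and 18.0 in CX3CR1+ libraries, a log2 fold change of 3.17 (SE 0.31, limma adjusted p = 6.24e-05). Bmp1 was at 77.2, 33.7 and 97.0 against 15.7, 12.5 and 17.4 (limma adjusted p = 0.00970), again without overlap. Loxl1 was at 44.9, 26.8 and 35.9 against 0.925, 3.28 and 1.42, and Loxl2 at 205, 93.0 and 234 against 37.9, 59.9 and 55.2, with log2 fold changes of 3.74 and 1.70 (limma adjusted p = 0.00187 and 0.00866). For Loxl1 only CX3CR1+ replicate 2 was above 3 reads, so that its fold rests on values near that level. Lox itself was under the limit on the mean, at 8.75, 22.0 and 11.5 against 0, 0.860 and 0. Loxl3, named after its values were seen, was the gene lower in CX3CR1-, with a log2 fold change of -1.31 (limma adjusted p = 0.0281). That call was lost without CX3CR1- replicate 1, without each of the CX3CR1+ replicates in turn, and without the trend in limma.

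Receptors of collagen were divided between the populations, with 6 of 10 higher in CX3CR1- and 3 lower, beside 12.2% and 8.15% of all genes. Of the 6 higher receptors, 3 had a CX3CR1+ mean under 10 and so passed the limit on the mean through their CX3CR1- values. Of the 7 receptors with a mean of at least 10 in each population, 3 were higher, beside 8.03% of all such genes. Mrc1, the macrophage mannose receptor, which also takes up collagen, was at 2932, 3689.8 and 3693 in CX3CR1- and at 15485, 15884 and 15078 in CX3CR1+ libraries (log2 fold change -2.18, SE 0.14, limma adjusted p = 5.62e-06). Lair1, an inhibitory collagen receptor of leukocytes, was at 236, 128 and 247 against 2282, 2270.5 and 2407 (log2 fold change -3.56, SE 0.25, limma adjusted p = 8.99e-06). Gp6, the collagen receptor of platelets and named after its values were seen, was the other lower gene, at 12.6 ± 6.84 (SD, n = 3) and 38.9 ± 9.64. Its call was lost with scaling to the nuclear total, with adjacent libraries as a block, and in each fit that left out a library other than CX3CR1- replicate 3. On the other side, Itga1, the alpha chain of a collagen-binding integrin, was at 291, 236 and 329.8 in CX3CR1- and at 23.4, 35.7 and 37.0 in CX3CR1+ libraries (log2 fold change 3.13, SE 0.29, limma adjusted p = 4.27e-05). Mrc2, the collagen uptake receptor of fibroblasts, had a log2 fold change of 3.23 (limma adjusted p = 0.000808). Itga11, Itga2 and Ddr1 had log2 fold changes of 2.95, 2.86 and 2.61 with limma adjusted p of at most 0.00713. Ddr2, a kinase receptor for fibrillar collagen, was at 209, 88.2 and 297 against 57.4, 104 and 40.6, so that its groups overlapped although it was called (log2 fold change 1.48, limma adjusted p = 0.0444). That call was lost with quantile normalization, without the trend, with adjacent libraries as a block, without CX3CR1- replicate 1 or 3 and without CX3CR1+ replicate 1 or 3.

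Markers of fibroblasts, pericytes, endothelium and glia were mostly higher in CX3CR1- cells, as the fibrillar collagens were, and those of smooth muscle were mostly not. Among all genes tested, 12.2% were called higher. Of 10 fibroblast markers, 8 were higher in CX3CR1- cells, and their summed level was 4289 to 13472 in CX3CR1- and 199 to 332 in CX3CR1+ libraries. Pdgfra was at 450.0 to 2356 and at 16.8 to 46.5, and Clec3b was at 0 in CX3CR1+ replicate 2. Of 6 pericyte markers 5 were higher (summed level 1909 to 9479 and 1092 to 1391), of 7 tested endothelial markers 5 (897 to 1251 and 359.9 to 643), and of 5 tested enteric glia and Schwann cell markers 4 (221 to 551 and 63.9 to 89.7). Of 8 smooth muscle markers 1 was higher, and their summed level of 1050.2 to 2852 in CX3CR1- overlapped that of 2038 to 2828 in CX3CR1+ libraries. Of 4 tested mesothelial markers 1 was higher (42.4 to 290.3 and 19.6 to 40.7), and Msln and Upk3b were at 0 in CX3CR1- replicate 2. All 7 epithelial markers were higher, at 15698 to 26742 and at 23.1 to 43.1, with Epcam at 0 in CX3CR1+ replicates 1 and 3. Some higher markers had a CX3CR1+ mean under 10 and so passed the limit on the mean through their CX3CR1- values. They were 4 of the 8 higher fibroblast, 3 of the 5 pericyte and 3 of the 5 endothelial markers. The same held for 1 of the 4 higher glial, the 1 higher mesothelial and 6 of the 7 epithelial markers. The part of these cell types in the collagen levels was not tested. In bulk libraries, fewer cells of a type and less RNA per cell cannot be told apart.

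Within the CX3CR1- libraries, replicate 2 was the lowest for most of the higher collagen genes and for several marker lists. Of the 17 higher genes, 15 were above replicate 2 in replicate 1 and 15 were above it in replicate 3, with a median ratio of 2.68 between replicates 3 and 2. Replicate 3 was above replicate 1 for 12 of the 17. The summed fibrillar collagens stood at 3092, 2141 and 5116 in replicates 1, 2 and 3, and the fibroblast markers at 8019, 4289 and 13472. Pericyte markers had the same order at 6404, 1909 and 9479. So did the summed type IV collagens at 530, 340 and 545 and the fibril-associated collagens at 612, 452 and 897. Smooth muscle, endothelial, glial and mesothelial markers were also lowest in replicate 2, but were highest in replicate 1. Epithelial markers had another order at 26742, 24960.0 and 15698, and so did dendritic cell markers at 3786, 4219 and 3885. With 3 libraries these orders were not tested.

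**Figure D5:**
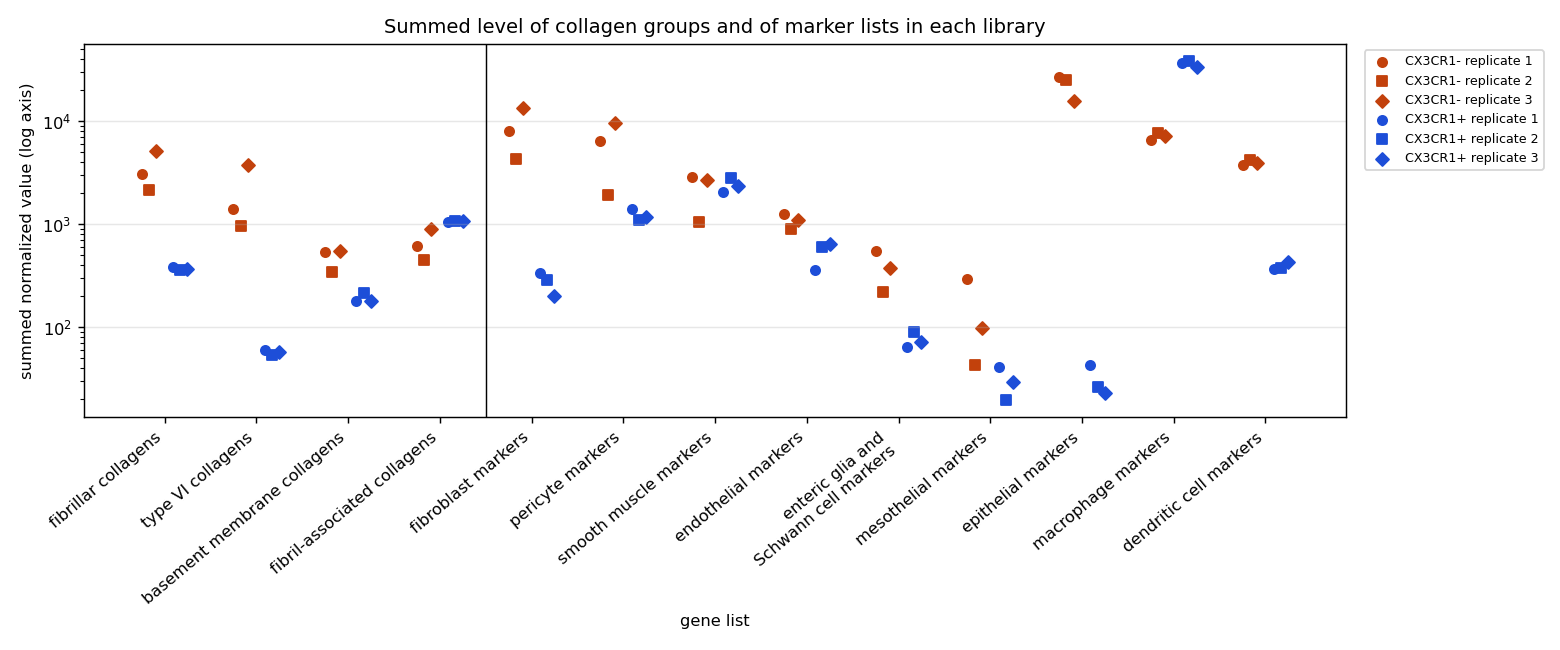
Summed normalized value (log axis) of collagen groups (left of the line) and marker lists (right of it) in each library, with circles, squares and diamonds for replicates 1, 2 and 3 of CX3CR1- (orange) and CX3CR1+ (blue). Every plotted collagen group and the fibroblast and pericyte markers have replicate 3 highest and replicate 2 lowest among the CX3CR1- libraries. Among the plotted collagen groups only the fibril-associated one has CX3CR1+ above CX3CR1-. Col14a1 makes up most of its CX3CR1+ level, with a mean of 843 within a mean sum of 1065. Of the 7 genes in that group, 5 have a log2 fold change above 0.

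Promoters of the collagen genes were compared in the 250 bases before the start of the gene in RefSeq for GRCm38.p6, where 33 of the 42 genes had an entry. RefSeq starts can differ from those of GENCODE. The Col1a2 window, chr6:4505368-4505617, lies inside the gene as placed above. Some windows overlap annotated exons, but those of Col3a1 and Col5a1 do not. The letters GGGCGG, a GC box, were found on either strand in 21 of the 33 (63.6%) and in 32.9% of 27025 promoters. CCAAT was found in 12 (36.4%, against 34.5%) and TATAAA in 5 (15.2%, against 13.0%). Col3a1 and Col5a1, both higher in CX3CR1- cells with log2 fold changes of 4.81 and 4.65, are shown because their windows are unlike: that of Col3a1 has a TATAAA and 35.2% G and C, and that of Col5a1 has 2 GC boxes and 76.4% G and C. The windows are chr1:45311288-45311537 and chr2:27886175-27886424 on the plus strand, with the motifs in capitals, and none of these motifs overlaps another in them.
Col3a1: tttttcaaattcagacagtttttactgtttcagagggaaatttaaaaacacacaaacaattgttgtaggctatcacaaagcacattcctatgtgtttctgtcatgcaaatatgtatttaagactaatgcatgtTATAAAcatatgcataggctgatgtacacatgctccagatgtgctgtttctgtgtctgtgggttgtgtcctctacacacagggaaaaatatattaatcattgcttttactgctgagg
Col5a1: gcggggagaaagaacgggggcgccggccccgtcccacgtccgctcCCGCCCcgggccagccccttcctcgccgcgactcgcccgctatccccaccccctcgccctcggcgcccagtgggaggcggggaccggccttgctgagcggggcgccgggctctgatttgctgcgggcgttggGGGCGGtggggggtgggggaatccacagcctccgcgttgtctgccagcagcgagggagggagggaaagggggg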

How the data were processed

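RNA-seq libraries of 3 CX3CR1- and 3 CX3CR1+ samples were analysed from 1 deposited table of gene-level normalized signal. The authors made this signal by estimating transcript counts with Kallisto on mm10 (GENCODE M16), summing them per gene and dividing by DESeq2 size factors. The values are therefore no longer counts, and limma was used here in place of the count model of the study. The depth of each library was approximated from the step between low values. From 42.6 to 44.7% of the values of a library were whole multiples of that step within a tolerance of 0.01, so that reads were not recovered.

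Groups were taken from the sample labels. Genes averaging 10 or more over the 6 libraries were tested on log2(value + 1) with limma 3.58.1 (R 4.3.3) with a trend, and p-values were adjusted over 17812 genes by Benjamini-Hochberg. This scale understates the change of low genes. A fold is not given where all libraries of a group held 3 reads or fewer. Partner chains were compared with an exact two-sided permutation test over libraries (scipy 1.17.1). Coordinates, lengths and exons came from GENCODE M21 on GRCm38, with the transcript of the longest coding sequence for each gene, and promoters came from RefSeq.

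The members, gene lists and tests were chosen with earlier results of these data known. The 4 collagens of highest mean in each class and each collagen called lower were given in full, and of the maturation and receptor lists the 6 with the smallest p in each plus Serpinh1, P4ha1, Lox, Ddr1, Ddr2, Itga1, Mrc2 and Lair1. The alternatives tried were other pseudocounts, limits on the mean, scalings, fold thresholds, limma without the trend or with library weights, a block of adjacent library numbers, and leaving out each library. The limma script was tested on simulated data.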

Additional observations from a re-analysis of the deposited data

How the results depend on the processing

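The direction of the collagen counts was kept in every alternative, and their size moved in a few. With a mean of at least 50 required, 9 collagen genes were higher and 1 lower in CX3CR1-, with 5 fibrillar, 1 type IV and 3 other collagens and 5 maturation genes among the higher ones, as fewer genes were tested. With a log2 fold threshold of 2, 4 maturation genes were higher and 0 lower, and without the trend 0 were lower. Leaving out each library in turn gave 13 to 20 higher collagen genes and 2 to 2 lower, 7 to 8 fibrillar, 2 to 3 type IV and 4 to 10 other collagens (4 without CX3CR1+ replicate 3), 7 to 9 higher and 0 to 1 lower maturation genes, and 5 to 6 higher and 2 to 3 lower receptors. The calls lost in these fits were those of Col11a1, Col13a1, Col9a2 and Col7a1. Quantile normalization gave 14 higher collagen genes (without Col11a1, Col13a1 and Col9a2) and scaling to the nuclear total gave 19, with the median of all genes shifted by -0.15 and 0.17. Col4a6, which was never called, changed sign with the nuclear total (0.0251) and without CX3CR1- replicate 3 (0.0568, the upper end of a range from -0.47). The cause was not tested. These labels were given only to the chain ratios and to the genes chosen by the rule in the section on processing. Of their other values, 455 kept their direction and side of the threshold, 5 gained a call (Col4a2 and Col12a1) and 7 lost it (Ddr2). The 455 include chain ratios divided by transcript length, a step that cannot change their difference. Calls lost by other genes, such as Gp6, Loxl3 and Col9a2, are outside this count. The labels give no replicate numbers, but their library numbers put a CX3CR1- and a CX3CR1+ library side by side in each of 3 pairs. With these pairs as a block, 18 collagen genes were higher, 16 of them among the 17 without it, with Col9a2 lost and Col12a1 and Col15a1 gained. Depth limits the genes near 3 reads in CX3CR1+ libraries, where absence cannot be told from a low level.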
